A study of Mus musculus with 2 samples.

Results

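Small nucleolar RNA (snoRNA) genes with at least 50 expected counts in both libraries were described in the heart of mice at 14 days of age. The annotation held 1507 genes with a transcript of the snoRNA biotype among 55536 annotated genes, and 21 of them reached the minimum. The members were therefore chosen by their measured counts, and their levels and number are given as a description without a test. The series held 2 libraries of 1 group: heart RNA from males of B6CASTF1/J, a cross of the C57BL/6J strain with CAST/EiJ, at 300 ng of RNA per library, depleted of ribosomal RNA and made into stranded libraries with spike-in RNAs. No treatment, mutation or other tissue was included, so no conditions could be compared. The labels number the libraries as biological replicates, mention 3x Males and give both the same donor label. Whether animals were pooled or shared between the libraries is not stated, so p-values below cover the difference between these 2 libraries only.

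SnoRNAs are short noncoding RNAs that guide the chemical modification of ribosomal and spliceosomal RNA, and a few of them act in the cleavage of the ribosomal RNA precursor. C/D box snoRNAs (symbols Snord) bind fibrillarin and guide 2′-O-methylation. H/ACA box snoRNAs (symbols Snora) bind dyskerin and guide pseudouridylation, and small Cajal body RNAs serve the spliceosomal RNAs. Most mammalian snoRNAs are cut out of introns of host genes, many of which make proteins of the ribosome or of translation, whereas U3 is transcribed from promoters of its own.

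Of the 21 members, 3 had Snora symbols, 4 had Snord symbols and 14 had other symbols. The Snora members were Snora73a, Snora73b and Snora74a, and the Snord members were Snord15a, Snord15b, Snord17 and Snord22. The other 14 were Scarna10, 5 identifiers of U3 (Rnu3a and Rnu3b1 to Rnu3b4) and 8 genes with the provisional Gm symbols of gene models. RefSeq (GRCm38.p6) listed a gene at the position of every member. Its symbol was the same for 16, it named Gm22486 as Snord94, and for 4 it gave only a LOC identifier. The symbol classes therefore did not sort the members by box type, and the sequences were read instead.

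The sequences that follow show the box letters searched here, and the copies whose reads can be confused. The H box of the H/ACA type was not searched for, so an ACA end alone does not establish that type. They are GENCODE M21 transcripts on mm10, printed 5′ to 3′ as DNA letters and in lower case. Capitals mark the last ACA in the ACA-ended sequences. The first 3 are Snora73b, Snora73a and Gm26448, which resemble one another. Gm22988 and Gm26447 were the ACA-ended members of highest level among the genes without a Snora symbol. Gm24119 is shown because it had the largest ratio between the libraries among the members.
Snora73b (chr4:132352322-132352526, minus strand): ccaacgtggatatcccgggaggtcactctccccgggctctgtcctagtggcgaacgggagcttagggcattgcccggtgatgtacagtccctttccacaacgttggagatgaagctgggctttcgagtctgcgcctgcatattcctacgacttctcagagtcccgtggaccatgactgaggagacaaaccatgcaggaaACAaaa
Snora73a (chr4:132352775-132352979, minus strand): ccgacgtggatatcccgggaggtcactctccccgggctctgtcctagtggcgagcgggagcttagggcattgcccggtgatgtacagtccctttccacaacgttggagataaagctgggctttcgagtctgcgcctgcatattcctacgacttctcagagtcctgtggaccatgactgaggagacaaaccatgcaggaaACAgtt
Gm26448 (chr9:120129351-120129553, plus strand): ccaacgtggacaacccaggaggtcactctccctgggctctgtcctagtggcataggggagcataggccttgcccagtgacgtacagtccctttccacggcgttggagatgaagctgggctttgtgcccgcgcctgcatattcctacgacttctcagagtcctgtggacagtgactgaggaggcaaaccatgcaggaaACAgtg
Gm22988 (chr11:69669635-69669778, minus strand): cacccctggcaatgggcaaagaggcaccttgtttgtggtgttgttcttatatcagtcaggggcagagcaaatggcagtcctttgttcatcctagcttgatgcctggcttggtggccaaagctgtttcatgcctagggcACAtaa
Gm26447 (chr16:23111301-23111429, plus strand): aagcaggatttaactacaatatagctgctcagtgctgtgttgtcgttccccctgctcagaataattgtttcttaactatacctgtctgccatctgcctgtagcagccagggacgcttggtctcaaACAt
Gm24119 (chr10:91118291-91118536, minus strand): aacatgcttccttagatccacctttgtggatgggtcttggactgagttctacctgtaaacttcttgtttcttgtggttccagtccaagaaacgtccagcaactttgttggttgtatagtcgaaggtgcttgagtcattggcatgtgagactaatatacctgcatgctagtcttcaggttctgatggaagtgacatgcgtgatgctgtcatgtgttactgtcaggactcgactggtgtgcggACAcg

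In the next sequences the capitals mark the first TGATGA, which contains the core of the C box, and the last CTGA, the D box. Snord15b and Snord17 were the Snord members with the highest counts. Gm22486 and Gm25835 are shown because their boxes are those of the C/D type although their symbols do not say so. Snord22 is shown because it has a D box and no TGATGA. Scarna10 was the member with the highest count, and its ends only are printed. The boxes at its ends do not type the rest of this RNA.
Snord15b (chr7:99479563-99479707, minus strand): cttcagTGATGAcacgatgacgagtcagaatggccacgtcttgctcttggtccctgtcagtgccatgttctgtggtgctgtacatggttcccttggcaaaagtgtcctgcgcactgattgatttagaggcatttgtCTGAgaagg
Snord17 (chr2:144265979-144266216, minus strand): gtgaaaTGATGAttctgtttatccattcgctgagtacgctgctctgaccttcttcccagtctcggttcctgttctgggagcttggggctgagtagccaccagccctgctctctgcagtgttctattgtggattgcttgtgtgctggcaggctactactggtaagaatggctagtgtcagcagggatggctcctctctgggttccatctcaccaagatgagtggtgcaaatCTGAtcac
Gm22486 (chr6:71882557-71882693, minus strand): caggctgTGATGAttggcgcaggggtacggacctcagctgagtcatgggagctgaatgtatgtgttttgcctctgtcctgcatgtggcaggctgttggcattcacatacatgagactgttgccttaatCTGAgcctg
Gm25835 (chr11:69668852-69668995, minus strand): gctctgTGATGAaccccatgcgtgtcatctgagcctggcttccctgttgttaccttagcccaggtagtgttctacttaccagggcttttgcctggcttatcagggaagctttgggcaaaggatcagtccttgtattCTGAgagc
Snord22 (chr19:8725866-8725991, plus strand): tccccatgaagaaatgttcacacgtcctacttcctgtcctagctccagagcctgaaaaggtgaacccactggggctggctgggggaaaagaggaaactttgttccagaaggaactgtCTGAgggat
Scarna10, first 30 bases (chr6:125186654-125186683, minus strand): gccatgTGATGAtatcaaggctgttgtgat
Scarna10, last 30 bases (chr6:125186359-125186388, minus strand): gacacacagatctttggtaatCTGAtggct

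U3 carries its boxes within the molecule and at its 3′ end, and the capitals again mark TGATGA and the last CTGA. The sequence of Rnu3b1 stands for all 4 Rnu3b genes, since their 215-base identifiers had 1 sequence between them. Rnu3a aligned to it with 85.2% identity, with 32 differences over 216 columns.
Rnu3b1 (chr11:87443237-87443451, plus strand): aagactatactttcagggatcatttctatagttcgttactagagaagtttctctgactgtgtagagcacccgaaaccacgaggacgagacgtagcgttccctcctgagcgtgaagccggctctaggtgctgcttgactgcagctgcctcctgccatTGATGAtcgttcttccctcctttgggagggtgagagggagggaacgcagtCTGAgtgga
Rnu3a (chr10:40258467-40258680, plus strand): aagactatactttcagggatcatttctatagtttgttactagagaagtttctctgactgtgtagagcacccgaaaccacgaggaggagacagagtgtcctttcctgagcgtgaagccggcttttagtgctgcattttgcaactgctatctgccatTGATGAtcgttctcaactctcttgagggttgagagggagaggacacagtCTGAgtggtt

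The letters TGATGA were searched in the first 25 bases, CTGA in the last 15 and ACA in the last 8, on the transcribed strand only; the motifs do not contain one another. TGATGA was found there in 7 of 21 members (Scarna10, Snord15a, Snord15b, Snord17, Gm22486, Gm23547 and Gm25835), which is 33.3%. Of the 1049 snoRNA genes of 100 bases or longer 1.81% held it, and of 8941 transcripts of other biotypes with 100 to 330 bases 1.21%. CTGA was found in 13 members (61.9%), against 9.72% and 7.54% in the same sets. Among these 13 the 4 Rnu3b identifiers have 1 sequence between them, so the shares of members count that sequence 4 times. ACA was found in 8 members (38.1%), against 62.7% and 9.2%. These 8 were the 3 Snora members, Gm22988, Gm26447, Gm26448, Gm24119 and Gm23547. Gm23547 held all 3 motifs. Gm23262 held none of them in these windows, and Snord22 and the 5 U3 genes held CTGA alone there. By these letters, 6 of the 8 Gm members had an ACA end or both C/D boxes and not both kinds. Snora73a and Snora73b differed at 7 of 205 aligned columns (96.6% identity), and Gm26448 matched Snora73a at 88.3%. Snord15a and Snord15b share a name and a host gene but were only 65.6% identical.

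Length set which snoRNA genes could be seen at all. Of the 1507 genes, 458 were shorter than 100 bases, and none of these had a count in either library. In the tables the effective length, the number of start positions a read can have, was the annotated length minus 99, so a transcript under 100 bases had an effective length of 0 and could not receive a count. This took out 87 of 98 Snord genes, 371 of 1367 genes with other symbols and 0 of 42 Snora genes. Of the genes of 100 bases to under 150, 106 of 995 had any count and 7 were members. From 150 to under 200 bases 7 of 23 had a count and 2 were members, and from 200 to under 400 bases 17 of 31 had a count and 12 were members (38.7%). Members were 4 of the 11 Snord genes of 100 bases or longer (36.4%) and 3 of 42 Snora genes (7.14%). In all, 130 snoRNA genes had a count in at least 1 library and 88 in both. A zero for a snoRNA under 100 bases in these tables therefore gives no upper limit on its level. The plot of length against count shows this step at 100 bases.

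**Figure D1:**
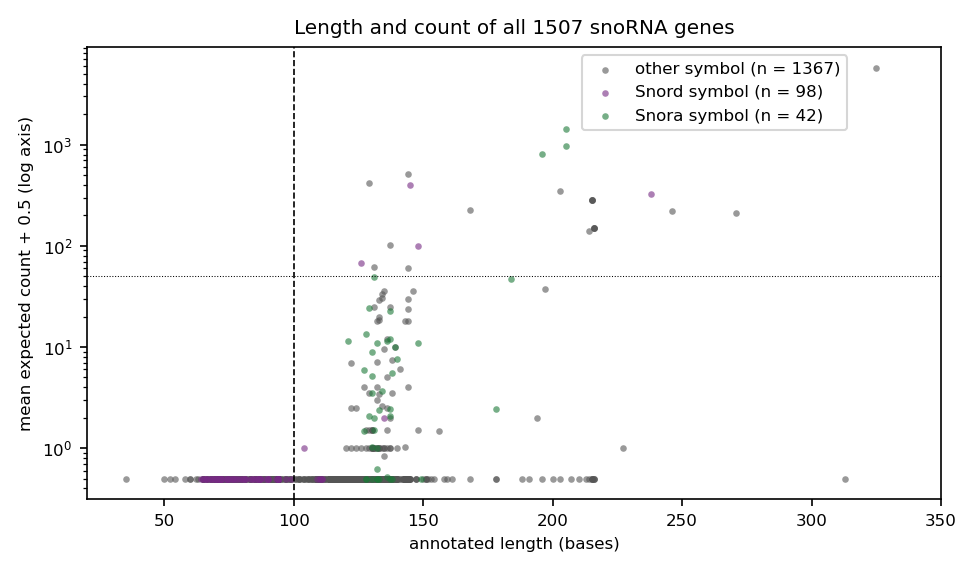
Annotated length in bases (x axis) against the mean expected count of the 2 libraries plus 0.5 (y axis, log scale) for all 1507 snoRNA genes, coloured by symbol class. The dashed line stands at 100 bases, left of which no gene has a count, and the dotted line at the mean of 50 counts; points on the bottom line have 0 counts.

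Depth was 39334380 expected counts in replicate 1 and 46391250 in replicate 2. The members took 12070 of these (0.0307%, 95% Wilson interval 0.0301 to 0.0312) and 14495 (0.0312%, 0.0307 to 0.0318). These intervals, and all intervals below, cover counting error only. In TPM, an abundance scaled for effective length and library, the members summed to 3659 and 3600, or 0.366% and 0.360% of the total. TPM divides counts by effective length, which ran from 27 to 226 bases for the members. It was under 50 bases for 7 of them, whose TPM therefore rest on few read positions. The median member stood at 76.9 TPM in replicate 1 and 77.8 in replicate 2, with 7 members above 100 TPM in both. The tissue label was checked with markers of heart muscle cells: Myh6, Tnnt2, Actc1, Myl2, Tnni3 and Ryr2 were between 386 and 10700 TPM in replicate 1 and between 400 and 9520 in replicate 2.

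Scarna10, a small Cajal body RNA of 325 bases that the annotation files as a snoRNA, led the members by count and by TPM. It had 5402 counts in replicate 1 and 6187 in replicate 2, which were 44.8% (95% Wilson interval 43.9 to 45.6) and 42.7% (41.9 to 43.5) of all member counts. Its level was 781 and 747 TPM. Small Cajal body RNAs guide modification of the spliceosomal RNAs. The level of Scarna10 was above that of every other member in each library.

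By single identifier, the 3 Snora members were next by count. U3 summed over its 10 identifiers, described below, had 1208 counts in replicate 1 and 2570 in replicate 2. This sum lay between Snora73b and Snora73a in replicate 1 and above all 3 Snora members in replicate 2. Snora73b had 1328 and 1509 counts (409 and 388 TPM) and Snora73a had 943 and 1013 counts (291 and 261 TPM). Both are copies of U17, an H/ACA RNA that acts in the processing of the precursor of 18S rRNA and has no known modification target. They lie next to each other on the minus strand of chromosome 4, in Snhg3 and within the span of Rcc1, at the positions given with their sequences. An annotated antisense gene, Gm17300, overlaps both. The libraries were stranded, but whether counting used strand is not given in the sources used here, so reads of Gm17300 and of the U17 copies cannot be told apart with certainty. Snora74a, the H/ACA RNA U19, had 710 and 915 counts (239 and 257 TPM). The median of the Snora members was 276 ± 21.4 TPM (SD, n = 2), from 291 and 261. All 3 were within a range of 239 to 409 TPM in replicate 1 and 257 to 388 in replicate 2.

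The Snord members were lower per length, except Snord15b. Snord15b, a guide of ribosomal RNA methylation, had 379 and 419 counts (269 and 249 TPM), while Snord15a from the same host gene had 105 and 95 counts (70.0 and 52.9 TPM). Snord17, another guide of ribosomal RNA methylation, had 247 and 404 counts (58.1 and 79.3 TPM). Snord22, the U22 RNA needed for processing of 18S rRNA, had 63.6 and 71.2 counts, and with an effective length of 27 bases this came to 76.9 and 71.9 TPM. The median of the Snord members was 74.5 ± 1.51 TPM (SD, n = 2). Snora and Snord values were compared without a test, because the minimum of 50 counts chose both sets and removes fewer long genes than short ones.

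Among the members without a Snora or Snord symbol, Gm22988 and Gm26447, both with an ACA end, reached the level of the Snora members. Gm22988 had 452 and 583 counts (328 and 353 TPM) and Gm26447 had 420 and 410 counts (458 and 372 TPM). Their effective lengths were 45 and 30 bases. Gm26448, which resembles U17, had 280 and 421 counts (88.0 and 110 TPM). Gm23262 had 225 and 229 counts (107 and 90.6 TPM), Gm23547 had 191 and 234 (36.2 and 37.0 TPM), and Gm22486, the Snord94 of RefSeq, had 97 and 104 (83.4 and 74.7 TPM). Gm25835, with C/D boxes, was the member closest to the minimum at 56 and 65 counts (40.7 and 39.4 TPM). The plot of levels shows 4 members that exceed 300 TPM in both libraries and 14 members that range from 24.9 to 110 TPM.

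**Figure D2:**
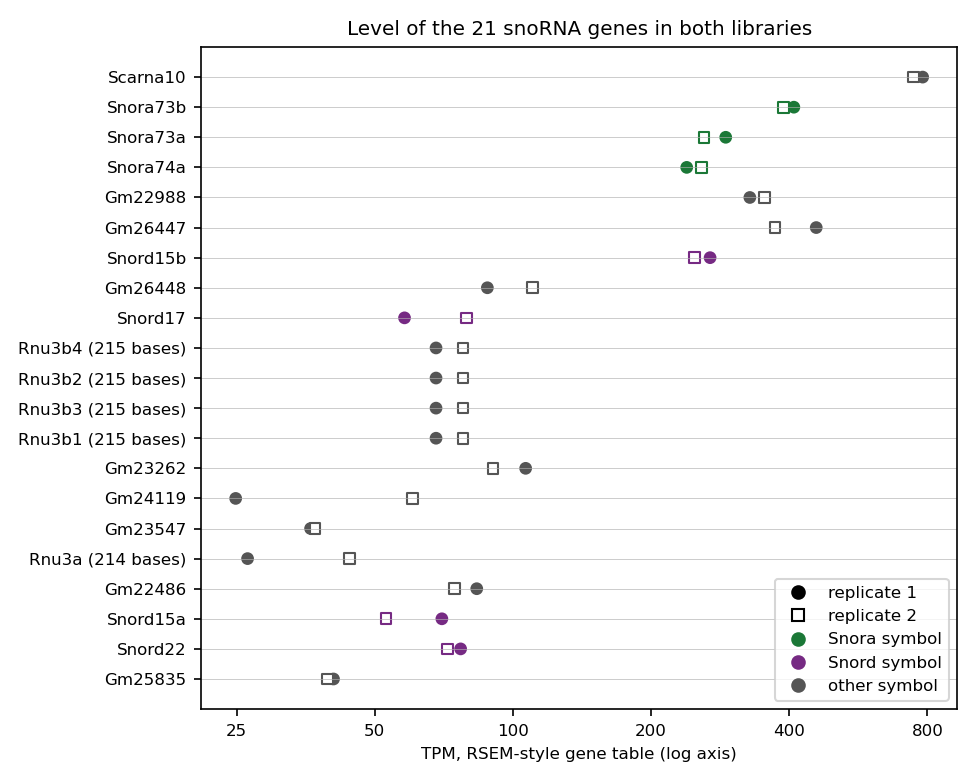
Level in TPM (x axis, log scale) of the 21 members in order of mean expected count, with filled circles for replicate 1 and open squares for replicate 2, coloured by symbol class. Scarna10 stands highest at 781 and 747 TPM, and the widest gap between the libraries is that of Gm24119 at 24.9 and 60.5 TPM.

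The minimum separated genes with similar counts. Just inside it, by the lower of the 2 libraries, were Gm25835 with 56 counts, Snord22 with 63.6 and Rnu3a with 93. Just outside were Gm25788 with 77 and 46 counts, Snora68 with 53.1 and 44.5, and the 216-base identifiers of Rnu3b1 to Rnu3b4 with 37.4 and 265 each.

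U3, the C/D RNA required for the first cleavages of the ribosomal RNA precursor, needs separate reading because its counts were divided between identifiers. Each of the 4 Rnu3b genes on chromosome 11, and Rnu3a on chromosome 10, is annotated under 2 identifiers with the same first base that differ by 1 base in length. The 215-base Rnu3b identifiers, which are members, had 241.4 and 331.0 counts each. The 216-base identifiers had 37.4 and 265 each and stayed below the minimum in replicate 1. At all 4 loci the longer sequence was the shorter one plus 1 base, and there was 1 distinct sequence of each length, and each of the 116 stretches of 100 bases in a 215-base identifier also occurs in the other Rnu3b identifiers. The deposited posterior SD of the count was 32.4% to 66% of the count in replicate 1 and 57.3% to 73.9% in replicate 2 for the 215-base identifiers. By comparison it was 0.734% or less of the count for Snora73a and Snora73b despite their 96.6% identity. Values of single Rnu3b identifiers are thus uncertain. Rnu3a had 93 and 186 counts (26.4 and 44.1 TPM), all on its 214-base identifier. Summed over all 10 identifiers, U3 had 1208 counts in replicate 1 and 2570 in replicate 2. The summed TPM was 340.1 and 602.6.

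The libraries were compared gene by gene with a 2-sided exact binomial test on rounded counts and TMM-scaled library sizes, with Benjamini-Hochberg adjustment over all 16611 genes tested. A gene was called at an adjusted p of 0.05 or less and at least a 2-fold ratio. In this comparison 2.47% of all tested genes were called higher and 0.771% lower in replicate 2, and 22.1% passed the adjusted p at any ratio. It compares these 2 libraries of 1 group, not conditions, and has no replicate check.

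The 2 libraries differed in markers of other tissues. Of 10 T cell and thymus genes (Cd3d, Cd3e, Cd3g, Cd4, Cd8a, Cd8b1, Lck, Themis, Rag1 and Ptcra), 9 were called higher in replicate 2 and Ptcra was too low to test. Their summed level was 1.63 TPM in replicate 1, with Ptcra at 0, and 58.2 TPM in replicate 2. The 4 atrial genes Myl7, Myl4, Nppa and Sln were all called lower in replicate 2, with summed levels of 1585 and 492 TPM. The proliferation genes Mki67, Top2a, Pcna, Ccna2 and Cdk1 summed to 42.1 and 57.5 TPM. All were higher in replicate 2, with log2 ratios from 0.33 (Ccna2) to 0.84 (Top2a). None reached 2-fold, so none was called. These markers move between the same 2 libraries as the differences in Gm24119, U3 and Snora23 given next, and their part in those differences was not tested. In bulk tissue, more cells of a type and more RNA per cell cannot be told apart.

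Of the 21 members, 1 was called higher in replicate 2 and 0 were called lower. That member was Gm24119, the 246-base ACA-ended RNA inside Slc25a3, with 112 counts in replicate 1 and 326 in replicate 2. Its log2 ratio was 1.26 (95% interval 0.94 to 1.58), a 2.39-fold ratio, with an adjusted p of 1.49e-15 in the exact binomial test. The gene Slc25a3, the mitochondrial phosphate carrier that hosts it, had a log2 ratio of 0.01, and no read-length stretch of Gm24119 occurs in any other annotated transcript. With edgeR's exact test and an assumed coefficient of variation of 0.2 between libraries, Gm24119 was no longer called (adjusted p = 0.265).

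The remaining members differed by less than 2-fold. Their median log2 ratio, all 21 included, was 0.008, against 0.0 over all genes tested, and 10 of 21 were lower in replicate 2. At the adjusted p of 0.05 and any ratio, 4 were higher and 3 lower. Besides Gm24119 the higher ones were Rnu3a (log2 0.72, interval 0.35 to 1.09), Snord17 (0.42, 0.19 to 0.66) and Gm26448 (0.30, 0.08 to 0.53). The lower ones were Gm26447 (-0.32, -0.52 to -0.12), Snora73a (-0.18, -0.31 to -0.05) and Scarna10 (-0.09, -0.14 to -0.04). For Scarna10 the many counts make a ratio of 0.94 distinguishable from 1 by counting error alone, with the TMM-scaled library sizes taken as exact. With unscaled totals the median log2 ratio of the members was 0.055 in place of 0.008, so a ratio this small depends on the scaling. The 7 members past the adjusted p are 33.3% of the 21, beside 22.1% of all genes, and no statement on the members as a set is drawn from this. Snora73b, the other U17 copy, had a log2 ratio of -0.10 (-0.21 to 0.01) and did not pass.

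Summing the U3 identifiers changed what the comparison shows. The 215-base Rnu3b identifiers had a log2 ratio of 0.17 (interval -0.07 to 0.42) and did not pass. The 216-base ones had 2.55 (2.06 to 3.09) and were called higher. Their posterior SD was 80.2 to 105.7 on a count of 37.4 in replicate 1, and 178.6 to 311.2 on 265 in replicate 2. The test and these intervals leave out the uncertainty of dividing shared reads between identifiers. All Rnu3b identifiers together had 1115 counts in replicate 1 and 2384 in replicate 2, a log2 ratio of 0.81 (0.71 to 0.92), or 1.75-fold. All U3 identifiers together had a log2 ratio of 0.80 (0.70 to 0.90), with an adjusted p of 2.4e-58 when entered as 1 gene in the exact binomial test; this is under 2-fold, so U3 was not called. The ratio was between 0.80 and 0.85 under the 4 ways of scaling the libraries. The sum does not depend on how reads were divided between the identifiers.

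**Figure D3:**
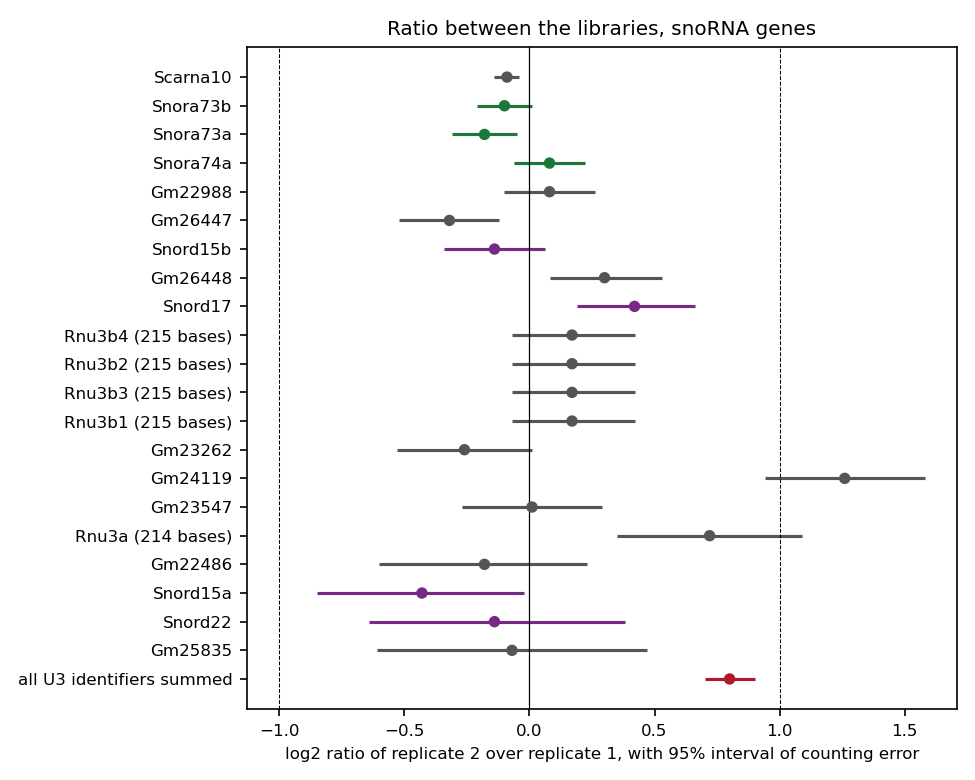
Log2 ratio of replicate 2 over replicate 1 (x axis) for the 21 members and for all U3 identifiers summed, with 95% exact intervals of counting error. Dashed lines mark a 2-fold ratio; only Gm24119, at 1.26, lies beyond one, and the summed U3 value stands at 0.80 while the 4 single Rnu3b identifiers stand at 0.17.

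Below the minimum, 31 further snoRNA genes had enough counts to be tested, and 5 were called higher and 1 lower. Over all tested genes 2.47% were called higher and 0.771% lower. Of the 5 higher ones, 4 were the 216-base Rnu3b identifiers, which have 1 sequence and the same counts. They are 1 observation entered 4 times, and no statement on these genes as a set is drawn. The other was Snora23, with 15 counts in replicate 1 and 77 in replicate 2 (log2 2.08, interval 1.26 to 2.98). The lower one was Gm25788, an RNA inside Pabpc4, with 77 and 46 counts (log2 -1.03, -1.59 to -0.48). The host gene of Snora23, the importin gene Ipo7, had a log2 ratio of 0.12, and Pabpc4 had 0.09.

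Of the 21 members 20 lay within a same-strand host gene, and Rnu3a had none. Among 20 members with a host, 14 had a higher TPM than the host gene and 6 a lower one. The median log2 ratio of member over host was 1.82 ± 0.114 (SD, n = 2). With counts per kilobase of annotated length in place of TPM it was 0.42, with 11 members above and 9 below the host. Snord15b, Gm26447 and Gm22486 then changed sides, with log2 ratios of -0.61, -0.13 and -1.15. These medians and counts include the 4 Rnu3b identifiers, which have 1 sequence and the same counts, as separate members above Tex14. Their log2 ratios were the highest, at 8.73 in TPM and 8.69 per annotated length. Without them, fewer members stood above than below the host per annotated length. Host and snoRNA levels share library and depth, and no test was made. The host span means position only: a snoRNA and its host are processed from 1 transcript in most cases, while the Rnu3b genes lie within Tex14, a gene of the germ line with 0.04 and 0.11 TPM here, beside 68.0 and 77.8 TPM for each Rnu3b member.

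Apart from the Rnu3b genes, the widest margins over a host in TPM were those of Snora74a, Scarna10, Snora73b and Snora73a. Scarna10 lies within Ncapd2, a condensin subunit at 13.6 and 13.7 TPM, and was 55.7-fold above it. Snora73b was 50.1-fold and Snora73a 34.6-fold above the noncoding host Snhg3, at 7.42 and 8.32 TPM. Snora74a was 66.4-fold above the noncoding AC121821.1, at 3.06 and 4.32 TPM. Snord22 was 7.04-fold above Snhg1, at 10.6 and 10.4 TPM. Every 100-base stretch of Snora74a and of Snord22 also occurs in a transcript of its host. Their ratios therefore depend on how shared reads were divided. By the kallisto-style values described below, AC121821.1 was at 74.6 and 83.4 TPM and Snhg1 at 27.7 and 25.5.

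The remaining hosts, Slc25a3 excepted, differed from their snoRNAs by 1.55-fold to 4.26-fold in TPM. Rps3, a protein of the small ribosomal subunit at 134 TPM in both libraries, was 1.93-fold below Snord15b but 2.2-fold above Snord15a. Eif4a1, a translation initiation helicase at 106 and 118 TPM, was 3.05-fold below Gm22988 and 2.79-fold above Gm25835. Its paralog Eif4a2, at 101 and 125 TPM, was 3.67-fold below Gm26447. In TPM, the 2 members of each of Rps3 and Eif4a1 lay on opposite sides of the host's level. Per annotated length both members of Rps3 were below it. All read-length stretches of Snord15b, Gm22988 and Gm26447 also occur in host transcripts, so their ratios depend on how shared reads were divided. Snord17 was 3.2-fold above Snx5 and Gm22486 1.55-fold above Ptcd3. Gm26448 was 2.22-fold below Rpsa, Gm23547 4.03-fold below Phb2, Gm23262 4.26-fold below Eif4g2, and Gm24119 25.7-fold below Slc25a3, which reached 989 and 1009 TPM.

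**Figure D4:**
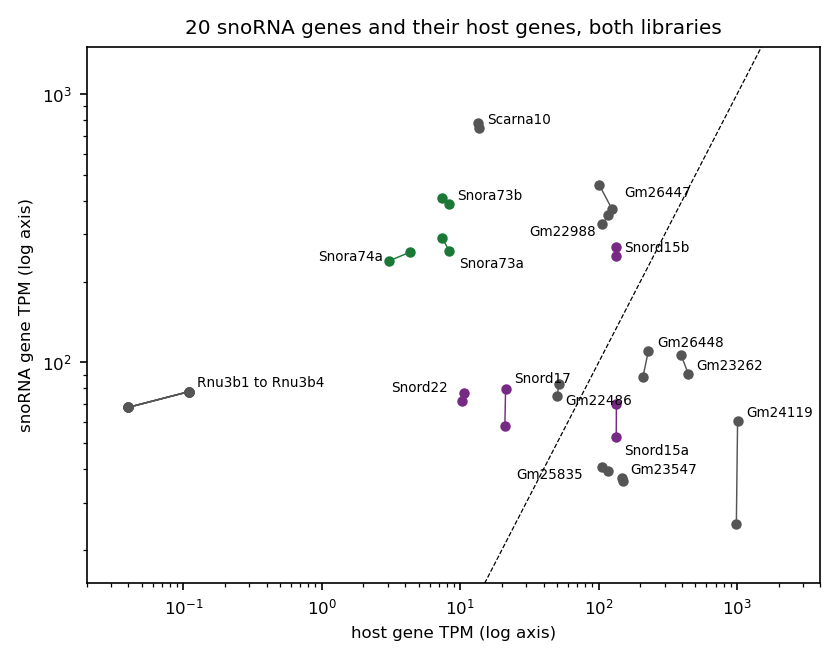
TPM of the host gene (x axis, log scale) against TPM of the snoRNA gene (y axis, log scale) for the 20 members with a host, with 1 point per library joined by a line and colours by symbol class (green Snora, purple Snord, grey other). The dashed line marks equal TPM; 14 members lie above it, from Tex14 at 0.04 and 0.11 TPM to Rps3 at 134 TPM, and 6 lie below it.

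The same reads were also deposited as estimated counts in the kallisto style, and there the members all but vanished. All 21 members were at least 2-fold lower in those tables in both libraries, whereas 2.58% of the 12732 genes with 50 counts in both libraries were lower and 0.534% were higher. The kallisto-style tables gave 0 counts in both libraries to 20 members. Scarna10 was the exception, with 5 and 3 counts. The median log2 ratio of kallisto-style over RSEM-style counts was -8.15 for the members, with 1 added to each count, and 0.09 over all genes at the minimum. A log ratio against 0 depends on the added count.

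This loss followed transcript length and was not special to the snoRNA biotype. Among genes whose longest transcript had 100 to under 200 bases, 33 of 33 genes without a snoRNA biotype also had 0 kallisto-style counts in both libraries. From 200 to under 300 bases this held for 21 of 23 such genes, from 300 to under 400 for 29 of 60, from 400 to under 600 for 26 of 143, and from 600 to under 1000 for 14 of 497. In the kallisto-style tables the effective length of transcripts of 2000 bases or more was 332.1 and 336.1 bases below the length, against 99 bases in the RSEM-style tables. The members had kallisto-style effective lengths of 31.6 to 72.1 bases in replicate 1 and 31.8 to 71.7 in replicate 2. The part of this difference in effective length in the lost counts was not tested.

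For some members the host gene had more counts in the kallisto-style tables. Every stretch of 100 bases, the read length implied by the effective length, was compared with all annotated transcripts. For 5 members (Snora74a, Gm22988, Gm26447, Snord15b and Snord22) each such stretch also occurred in at least 1 host transcript, each annotated as a retained intron. The retained-intron transcript of AC121821.1 that contains Snora74a had 9.1 and 13.6 counts in the RSEM-style tables and 813 and 1050 in the kallisto-style tables. Snora74a itself had 710 and 915 counts in the first and 0 in the second. The retained-intron transcript of Eif4a1 with Gm22988 went from 74.5 and 161 counts to 999 and 1351. The transcripts of Eif4a2 with Gm26447 went from 36.7 and 48.0 to 612 and 606, and that of Rps3 with Snord15b from 37.5 and 62.0 to 612 and 721. For Snord22 in Snhg1 the values were 61.2 and 109 against 144 and 223. The surplus of kallisto-style over RSEM-style counts in these host transcripts was 113% to 204% of the snoRNA's own RSEM-style count in replicate 1 and 113% to 204% in replicate 2. Whether these are the same reads was not tested.

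For the other members, a surplus was computed only where a 100-base stretch is shared with a transcript outside the snoRNA biotype. These were Scarna10, Snora73a, Gm23262 and Gm23547, and among them only Snora73a had a surplus. The transcripts that share stretches with Gm23262 and Gm23547 had fewer counts in the kallisto-style tables in both libraries. A total of 7 members share no 100-base stretch with any other annotated transcript. Scarna10 shares 184 of its 226 stretches with 2 transcripts, of Gm28967 and Ncapd2, yet these had 5.2 and 0 counts in the RSEM-style tables and 0 in both kallisto-style tables. Snora73a shares 60 of 106 stretches with a transcript of Snhg3, which gained 36.9 and 65.9 counts, 3.91% and 6.51% of the count of Snora73a. The plot of host transcripts shows the 5 members that are wholly contained.

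**Figure D5:**
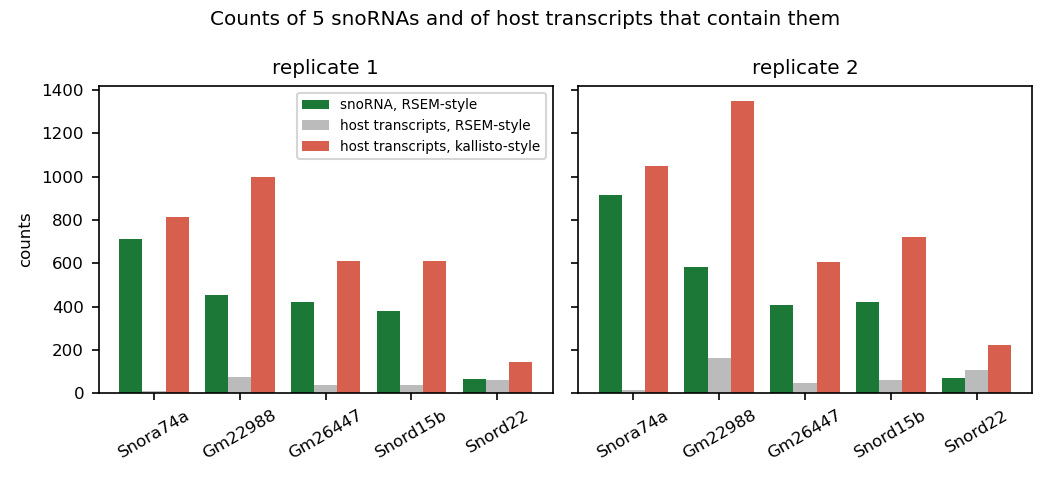
Counts (y axis) for 5 members in replicate 1 and replicate 2: the snoRNA gene in the RSEM-style tables (green), the host transcripts that contain it in the RSEM-style tables (grey) and the same transcripts in the kallisto-style tables (red). The red bars exceed the green ones for all 5, for example 813 against 710 counts for Snora74a in replicate 1.

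The mRNAs of the proteins that make up and assemble snoRNPs were present at moderate levels in both libraries. All values given for them are RNA levels, and protein was not measured. The 4 H/ACA core proteins Dkc1, Nhp2, Nop10 and Gar1 were all at 1 TPM or more, with a median of 8.76 TPM and Nop10 highest at 25.4 ± 1.3 TPM (SD, n = 2). The 4 C/D core proteins Fbl (fibrillarin), Nop56, Nop58 and Snu13 had a median of 14.2 TPM, with Snu13 at 20.5 ± 2.24. None of these 8 was called between the libraries. At the adjusted p alone, Nop58 was higher in replicate 2 (11.5 and 15.5 TPM, log2 0.39, adjusted p = 8.21e-05 in the exact binomial test), and so was Dkc1 (7.53 and 10.8 TPM, log2 0.25). All 15 assembly and nucleolar factors were detected, with a median of 4.36 TPM and the highest levels for Npm1 at 64.0 ± 2.18 and Ncl at 53.2 ± 2.67. None of the 15 was called. Tcof1 (log2 0.32, adjusted p = 0.00115) and Ruvbl2 (log2 0.24, adjusted p = 0.0417) passed the adjusted p alone in the exact binomial test. Both were higher in replicate 2.

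Of 14 snoRNAs listed for their part in cleavage of the ribosomal RNA precursor, 8 were members: the 5 U3 genes, both U17 copies and Snord22. Of the other 6, Snord118 (U8) had 0 and 3 counts. Snord13 had 1 and 0, but its effective length was 5 bases, so 1 count came to 6.53 TPM in replicate 1. Its low count therefore says little about its level. Snord14a, Snord14c, Snord14d and Snord14e are shorter than 100 bases and had 0. The same limit applied to the 4 snoRNAs in Rpl13a and to 17 Snord116 copies of the imprinted chromosome 7 cluster, all under 100 bases and at 0. No gene was found under the symbols Snord113 or Snord114. Host genes of such clusters can be read where the snoRNAs cannot: Snhg14, the host of Snord116, was at 6.37 and 5.89 TPM, and Rian at 9.26 and 10.6 TPM. Of 21 noncoding host genes looked for, 18 were found and 14 reached 1 TPM in both libraries. Gas5 was highest at 28.3 ± 0.552 TPM. None of these host genes was called, and only Mir17hg (log2 0.75) passed the adjusted p at any ratio. The longer nucleolar RNAs Rmrp and Rpph1, the RNA subunits of RNase MRP and RNase P, stood well above the members at 1882 and 1741 TPM and at 4567 and 4842 TPM. Terc, the H/ACA-ended telomerase RNA, had 9 and 21 counts.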

How the data were processed

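Total RNA of heart was sequenced in 2 libraries of 1 group, so there were no groups to compare. The authors deposited, per library, 1 gene table and 1 transcript table under RSEM column names, holding expected counts and TPM per the file headers, and a transcript table with kallisto column names, holding estimated counts and TPM. The tool names are taken from these column names; aligner and quantifier versions were not given in the sources used here. Reads were assigned to mm10 with annotation M21, per the deposited readme. GENCODE M21 supplied coordinates and sequences.

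Members were snoRNA genes with at least 50 expected counts in both RSEM-style gene tables. The members, gene lists and markers were chosen with earlier results of these data known. Kallisto-style values were summed per gene. Expected counts were rounded for tests. The ratio between the libraries used a 2-sided exact binomial test (scipy 1.17.1) with TMM sizes from edgeR 4.0.16 (R 4.3.3), over genes that had 10 counts in both libraries, or 20 when summed; intervals of ratios are exact (Clopper-Pearson, 95%). On simulated counts with 200 genes changed 2.5-fold among 16579 tested, 99.5% were called in the right direction. At 1.5-fold, 0% of 200 passed the 2-fold threshold. The simulated counts were Poisson draws with counting error only, and the changed genes had an expected count of at least 50. Variation between libraries beyond counting error was not simulated, so these rates do not cover it. Spike-ins took 0.517% and 0.531% of counts and were left out of TMM. Level ratios used a pseudocount of 0.1 TPM, and ratios between tables a pseudocount of 1 count. For members in several host genes the host with the highest TPM was used. Identities are from global alignments (Biopython 1.88). Named genes were the members of each symbol class with the highest counts, those called, those with the largest ratio between tables, those nearest the minimum, and the listed genes. Markers, and genes called below the minimum, were named after their values were seen. Alternatives were DESeq2 1.42.0 size factors, unscaled totals, spike-in scaling, no filter, edgeR's exact test with assumed coefficients of variation of 0.1 and 0.2, other minimums and pseudocounts, and leaving out each library. The posterior mean counts, the sum of identifiers with the same first base and the sum of U3 identifiers were added after seeing the data.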

Additional observations from a re-analysis of the deposited data

How the results depend on the processing

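The number of members was 37 at a minimum of 20 counts, 16 at 100, 25 with posterior mean counts, 21 with identifiers of the same first base summed, 0 with kallisto-style counts, and 27 and 23 when 1 library alone had to pass (without replicate 1 and without replicate 2). Gm24119 was the 1 member called under each scaling, without the filter, with edgeR's exact test at an assumed coefficient of variation of 0.1 (adjusted p = 8.5e-05) and with U3 summed; at 0.2 the number called was 0, with an adjusted p of 0.265. Over these settings its adjusted p ranged from 9.3e-17 to 0.265. Kallisto-style counts gave no value for the ratio between the libraries, since 20 of 21 members had 0 counts. The median TPM of Snora members was 261 and 291 without replicate 1 and without replicate 2, 0 by kallisto-style TPM and 112 as counts per kilobase of annotated length, scaled to library size; for Snord members it was 75.6 and 73.5, 0 and 23.7. The members' share of TPM was 0.36% and 0.366% with 1 library left out, 0.000171% by kallisto-style TPM, 0.351% by posterior mean TPM, and 0.031% as a share of counts. The median log2 ratio of kallisto-style over RSEM-style counts was -11.47 with a pseudocount of 0.1, and -8.38 and -7.92 with 1 library left out. The median log2 ratio between the libraries was 0.055 with unscaled totals, where the median of all genes with 10 counts in each library was 0.042, and 0.013 and 0.017 with DESeq2 and spike-in scaling. The median log2 ratio of member over host was 1.8 with a pseudocount of 1, 0.42 as counts per kilobase of annotated length, 1.74 and 1.9 with 1 library left out, and reversed to -9.38 by kallisto-style TPM, where the members are at 0. Leaving out a library leaves 1, so those values have no error. The medians of member over host count the 4 Rnu3b identifiers separately. No paired analysis was possible because both libraries belong to the same group. Depth limits the smallest members: for Gm25835, with 56 and 65 counts, the 95% interval of the log2 ratio ran from -0.61 to 0.47.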

Other observations

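Genes of the separate biotype scaRNA, the small Cajal body RNAs, were outside the rule for members. Of 46 such symbols, 24 had 0 counts in both libraries, among them the 4 under 100 bases, which could not receive a count. Another 8 had at least 50 counts in both. Scarna2 was the highest of these by count, with 3458 and 4297 counts (359 and 372 TPM), followed by Gm22009 with 1454 and 1807 (195 and 202 TPM). Scarna6 had 366 and 388 counts and Scarna13 had 292 and 394. None was called between the libraries. Gm25395 had 416 and 775 counts (78.6 and 122 TPM), a log2 ratio of 0.61, and was the 1 scaRNA symbol past the adjusted p of 0.05 at any ratio (adjusted p = 3.38e-11 in the exact binomial test). Scarna10, with more counts than any of them, is filed by the annotation as a snoRNA and not as a scaRNA.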
